A study of Mus musculus with 3 samples.

Results

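The mitochondrial ribosomal protein genes of the mouse were followed in ovaries after chemotherapy, with and without transplanted adipose-derived stem cells (ADSC). Probes were taken as members where the array's gene name was Mrpl or Mrps followed by a number, with or without a closing a or b. This rule found 84 probes for 71 of the 19459 named genes on the array, of which 44 genes (52 probes) belonged to the large subunit (Mrpl) and 27 genes (32 probes) to the small subunit (Mrps). All 71 names are current gene symbols, and the rule goes by name alone. The rule left out Mrpl42, Mrpl57 and Mrpl58, which the array lists under older names, and Mrps18c, whose name ends in c.

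The groups, all of C57BL/6 mice, were POF (cyclophosphamide, an alkylating drug used to bring about premature ovarian failure), ADSC1 (POF mice given ADSC into a vein), ADSC2 (POF mice given ADSC into both ovaries) and WT (normal mice without treatment). Whole ovaries were collected 1 week after treatment. Each of the 3 two-colour arrays compared amplified RNA from a treated group, labelled with Cy5, with that of WT, labelled with Cy3, so that the ratios of all 3 arrays share the WT group and every comparison of treated groups with POF shares the POF array. Neither the number of animals behind an array nor whether WT was 1 pool of RNA is given in the labels, and the dyes were not exchanged. With 1 array per group there was no replicate check on any difference, no test could be made, and precision was limited by the small number of arrays.

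Mitochondria carry their own ribosomes, which translate the few membrane proteins encoded by mitochondrial DNA, all of them parts of the respiratory chain and the ATP synthase. The ribosomal RNAs come from mitochondrial DNA, whereas every protein of the large and small subunit is encoded in the nucleus, made in the cytosol and imported. The large subunit joins amino acids and threads the new chain through a tunnel, and the small subunit reads the messenger RNA. Variants in some of these genes are known from human disease, ovarian insufficiency included.

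Promoters of named members are shown here because NRF1, ETS-family factors such as GABP, YY1 and SP1 are known regulators of nuclear genes for mitochondrial proteins. A promoter was matched by symbol for 62 of the 71 members (RefSeq, GRCm38.p6, the first listed where a gene had several). The stretches below run from 150 bases before to 30 bases after the annotated start, 5′ to 3′ on the strand of the gene, and capitals mark matches on either strand to the searched motifs.
Mrpl9, large subunit, chr3:94443186-94443365, plus strand: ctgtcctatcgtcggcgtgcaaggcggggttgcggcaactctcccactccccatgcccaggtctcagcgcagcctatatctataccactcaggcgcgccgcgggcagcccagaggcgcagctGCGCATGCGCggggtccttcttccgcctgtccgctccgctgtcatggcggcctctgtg
Mrpl12, large subunit, chr11:120484487-120484666, plus strand: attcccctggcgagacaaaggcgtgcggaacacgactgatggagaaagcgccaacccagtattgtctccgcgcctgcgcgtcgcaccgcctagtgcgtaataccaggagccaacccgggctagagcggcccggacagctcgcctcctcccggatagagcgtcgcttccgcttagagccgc
Mrps27, small subunit, chr13:99344636-99344815, plus strand: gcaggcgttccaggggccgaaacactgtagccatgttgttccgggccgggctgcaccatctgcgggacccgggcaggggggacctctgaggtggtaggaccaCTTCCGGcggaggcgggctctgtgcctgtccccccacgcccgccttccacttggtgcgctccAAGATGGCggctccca
Mrps22, small subunit, chr9:98601650-98601829, minus strand: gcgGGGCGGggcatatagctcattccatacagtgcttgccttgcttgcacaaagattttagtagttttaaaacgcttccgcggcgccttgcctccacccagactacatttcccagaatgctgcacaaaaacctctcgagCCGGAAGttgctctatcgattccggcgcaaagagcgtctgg
Mrps7, small subunit, chr11:115603990-115604169, plus strand: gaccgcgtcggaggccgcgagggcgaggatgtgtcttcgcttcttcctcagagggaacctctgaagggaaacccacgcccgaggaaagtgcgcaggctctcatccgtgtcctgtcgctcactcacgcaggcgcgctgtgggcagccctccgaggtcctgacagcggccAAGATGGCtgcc
Mrpl9 held the NRF1 motif, a palindrome in which GCGCATG and its reverse complement overlap, Mrps27 and Mrps22 the ETS motif CCGGAAG, Mrps27 and Mrps7 the YY1 motif AAGATGGC, and Mrps22 the SP1 motif GGGCGG. None of these was found in the stretch of Mrpl12.

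Over the full windows of 300 bases (250 before to 50 after the start), the ETS motif stood in 22 of 62 member promoters (35.5%), against 11.9% of 17491 protein-coding promoters and 9.12% of all 27025 promoters. The YY1 motif stood in 11 members (17.7%), against 3.22% of protein-coding and 2.88% of all promoters. The NRF1 motif stood in 3 members, Mrpl9, Mrpl32 and Mrpl39 (4.84%), against 1.32% and 0.977%. Its 7-base part GCGCATG, which every full match contains on both strands, stood in 8 members (12.9%), against 4.88% and 4.04%. The ETS and YY1 motifs stood in 12 and 5 of 38 large-subunit promoters and in 10 and 6 of 24 small-subunit promoters. SP1 was near the background, in 48.4% of members against 46.3% of protein-coding promoters and 35.9% of all. The median GC content was 58.2% in the member promoters, 56.3% in protein-coding promoters and 52.7% in all. A match is a description of these letters and not evidence of binding.

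**Figure D1:**
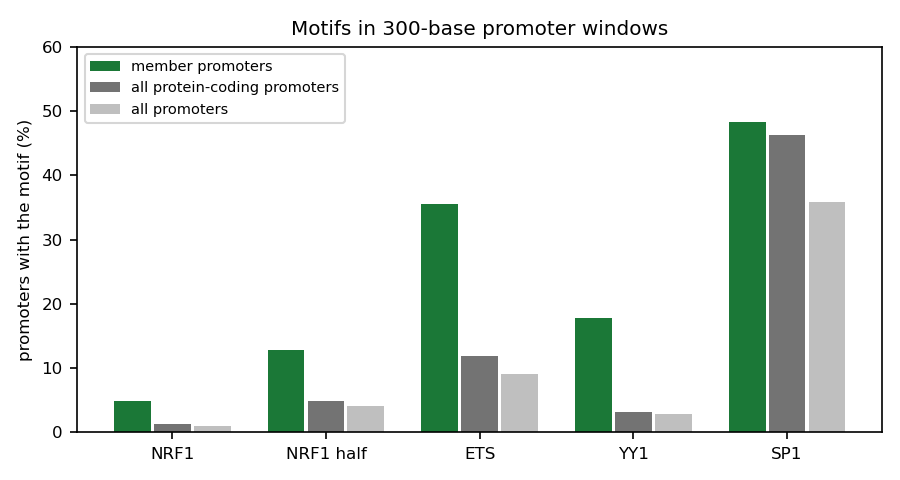
Share of promoters (in percent, bars start at 0) that held each motif on either strand, for 62 member promoters, 17491 protein-coding promoters and all 27025 promoters. The ETS motif stood in 35.5% of member promoters and the YY1 motif in 17.7%, whereas SP1 stood in 48.4% of members and 46.3% of protein-coding promoters.

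Members with and without a motif were also set side by side. Between ADSC1 and POF the median log2 difference was 0.22 over 20 members with the ETS motif and 0.11 over 39 without, and between ADSC2 and POF it was 0.19 and 0.05 over the same members. For the YY1 motif the medians between ADSC1 and POF were 0.06 over 11 members with it and 0.18 over 48 without. The other motifs gave 0.16 with and 0.14 without for NRF1, which only 3 members held. Its part GCGCATG gave 0.07 and 0.17, and SP1 gave 0.12 and 0.18. Whether any motif bears on these medians was not tested.

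The members gave strong signals. In at least 1 channel, 91.7% to 92.9% of the 84 member probes were above background on each array, against 44.8% to 48.2% of all named probes, and none was saturated. No blank spot of 768 was above background on any array (0 on each). Of the 71 members, 68 were measured in all 6 comparisons. Mrpl33 was not above background on any array. Mrpl51 was above background only in POF, and Mrps14 only in the Cy5 channels of ADSC1 and ADSC2, at least 1.14-fold and 1.16-fold over WT. On the POF array Mrps14 passed in neither channel, and its log2 ratio there was 0.31. Such folds, and that of Mrpl35 below, set the brighter channel against the dimmer one, or against the lowest probe above background where that was higher, on single-channel signals open to dye bias. A probe that passes in Cy5 alone tends to lie above WT through the filter itself, so these folds do not show a difference. In whole ovary RNA, fewer cells of a type and less RNA per cell cannot be told apart.

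The WT channel, the only group on more than 1 array, gave a measure of the spread between arrays. Whether this spread is technical alone cannot be told, because the labels do not say whether WT was 1 pool. The measure leaves out the variation between animals of a treated group and WT, so it cannot show that groups differ. For a single member the WT signal had a pooled SD of 0.16 log2 units over the 3 arrays. The median WT signal about the genes' own means had an SD of 0.04 over the arrays for the large subunit (n = 3 arrays) and 0.024 for the small subunit. These SDs were taken after the signals had been scaled across arrays, which itself brings the arrays closer together. A further measure was the gap between probes of 1 gene, with a median of 0.24 log2 units on the POF array, 0.14 on the ADSC1 array and 0.21 on the ADSC2 array over 8 members.

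In POF ovaries both subunits lay close to WT. The median log2 ratio was -0.06 over 43 large-subunit genes and -0.06 over 26 small-subunit genes, against 0.01 over all 9486 measured genes, and both medians turned to the other side of 0 with the authors' own normalized values (0.02 and 0.03) and with median centring (0.42 and 0.48, with all genes at 0.36). Of the large subunit 16 of 43 genes and of the small subunit 11 of 26 lay above 0, against 51.8% of all genes. At 1.5-fold or more, 1 member was higher, Mrpl35, against 4.3% of all genes, and none (0) was lower, against 4.68%. Mrpl35 was measured only through its POF channel, and with both channels required above background the count of members was 0. No member reached 2-fold in either direction, against 2.41% of all genes, although Mrpl35 did with the authors' values (1.49) and Mrpl50 with median centring (1.03). The spread over members was narrower than over all genes, with SDs of 0.22 (large) and 0.14 (small) against 0.37. Members and all genes were not matched for signal strength, so the narrower spread cannot be read as a trait of the members.

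The low end of the large subunit in POF was held by 3 genes of known place. Mrpl12, the stalk protein that recruits translation factors, had a log2 signal of 12.93 in POF against 13.26 in WT, a log2 ratio of -0.33. Mrpl14, a protein at the face that meets the small subunit, had 12.88 in POF against 13.20 in WT (log2 ratio -0.33). Mrpl45, which lies at the tunnel exit and holds the ribosome to the inner membrane, had 10.15 in POF against 10.50 in WT, a log2 ratio of -0.35. Each of these ratios lay above 0 under median centring (0.28 for Mrpl12, 0.28 for Mrpl14 and 0.02 for Mrpl45). All genes then had a median of 0.36, so the 3 genes stayed below it.

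At the high end in POF stood Mrpl50, a large-subunit protein that bacteria lack, with a log2 signal of 11.97 in POF against 11.42 in WT (log2 ratio 0.54). Mrpl9, whose bacterial counterpart reaches out from the large subunit, had 11.92 in POF against 11.61 in WT (0.31). Mrpl48, a protein of the central protuberance, followed with a ratio of 0.24. Mrpl35 had a ratio of 0.62, but on the POF array its WT signal did not pass background. The lower bound was 1.46-fold, on a probe that passed through POF alone, and the second probe of Mrpl35 was dim in both channels.

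The small subunit in POF spanned -0.29 to 0.22. Mrps18a was lowest (-0.29), then Mrps7 (-0.22) and Mrps22 (-0.20). Under median centring these 3 also lay above 0 (0.25, 0.29 and 0.24), but below the all-gene median of 0.36. Mrps2 (0.22), Mrps26 (0.22) and Mrps27 (0.15) were highest. For Mrps2 the average hides a disagreement, since 1 probe had a ratio of 0.45 and the other -0.01.

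In ADSC1 ovaries the large subunit lay above WT. The median log2 ratio was 0.14 over 42 large-subunit genes and 0.06 over 27 small-subunit genes, against 0.003 over all 10156 measured genes. Of the large subunit 33 of 42 and of the small subunit 18 of 27 were above 0, against 50.4% of all genes. The large median stayed 0.11 to 0.32 above the median of all genes under every alternative tried. At 1.5-fold or more 1 member was higher, Mrpl47, against 7.32% of all genes, and none (0) was lower, against 4.32%. No member reached 2-fold, against 2.87% of all genes.

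The 3 highest large-subunit genes in ADSC1 were Mrpl47, Mrpl1 and Mrpl50. Mrpl47, which binds at the tunnel exit, had a log2 signal of 10.97 in ADSC1 against 10.37 in WT, a log2 ratio of 0.59. Mrpl1, the protein of the mobile stalk through which spent tRNAs leave, had 11.62 in ADSC1 against 11.08 in WT (0.55), and its 2 probes gave 0.54 and 0.55. Mrpl50 had 11.93 in ADSC1 against 11.41 in WT (0.52), much as on the POF array.

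Some large-subunit genes lay on the other side. Mrpl4, which lines the tunnel, had a log2 signal of 11.54 in ADSC1 against 12.11 in WT, a log2 ratio of -0.57. Mrpl49 had 11.47 in ADSC1 against 11.90 in WT (-0.43). Mrpl38, of the central protuberance, had 10.06 in ADSC1 against 10.48 in WT (-0.42). All 3 stayed below 0 under median centring (-0.23, -0.11 and -0.22), so the large subunit did not lie to 1 side as a whole.

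In the small subunit Mrps21 (0.48), Mrps24 (0.46) and Mrps33 (0.37) were highest in ADSC1 against WT. Mrps7 (-0.25), Mrps18a (-0.22) and Mrps9 (-0.18) were lowest. Under median centring these 3 lay above 0 (0.14, 0.17 and 0.04), but below the all-gene median of 0.20. Mrps24 is the counterpart of bacterial S3 at the entry of the messenger RNA, and its log2 signal was 12.50 in ADSC1 against 12.04 in WT.

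ADSC2 ovaries gave medians of 0.13 over 42 large-subunit genes and 0.06 over 27 small-subunit genes against WT, beside 0.004 over all 9942 genes. Of the large subunit 27 of 42 and of the small subunit 18 of 27 lay above 0, against 50.5% of all genes. No member (0) was 1.5-fold higher, against 6.94% of all genes, or 1.5-fold lower, against 4.02%. None was at 2-fold, against 3.28% of all genes.

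Mrpl1 was the highest member in ADSC2, with a log2 signal of 11.32 in ADSC2 against 10.82 in WT and a log2 ratio of 0.51 (probes at 0.62 and 0.40). Mrpl47 (0.50) and Mrpl55 (0.48) followed. Mrpl37 (-0.40), Mrpl4 (-0.39) and Mrpl38 (-0.38) were the lowest of the large subunit, with values of -0.02, -0.01 and -0.25 under median centring. The ratios of ADSC1 and ADSC2 both have WT RNA below the line, so they are not independent of each other.

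In the small subunit Mrps27, a pentatricopeptide-repeat protein, stood apart at the low end in ADSC2. Its log2 signal was 9.82 in ADSC2 against 10.31 in WT, a log2 ratio of -0.50, and the next lowest, Mrps34, had -0.19. Mrps16 (0.36), Mrps28 (0.32) and Mrps31 (0.29) were highest.

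**Figure D2:**
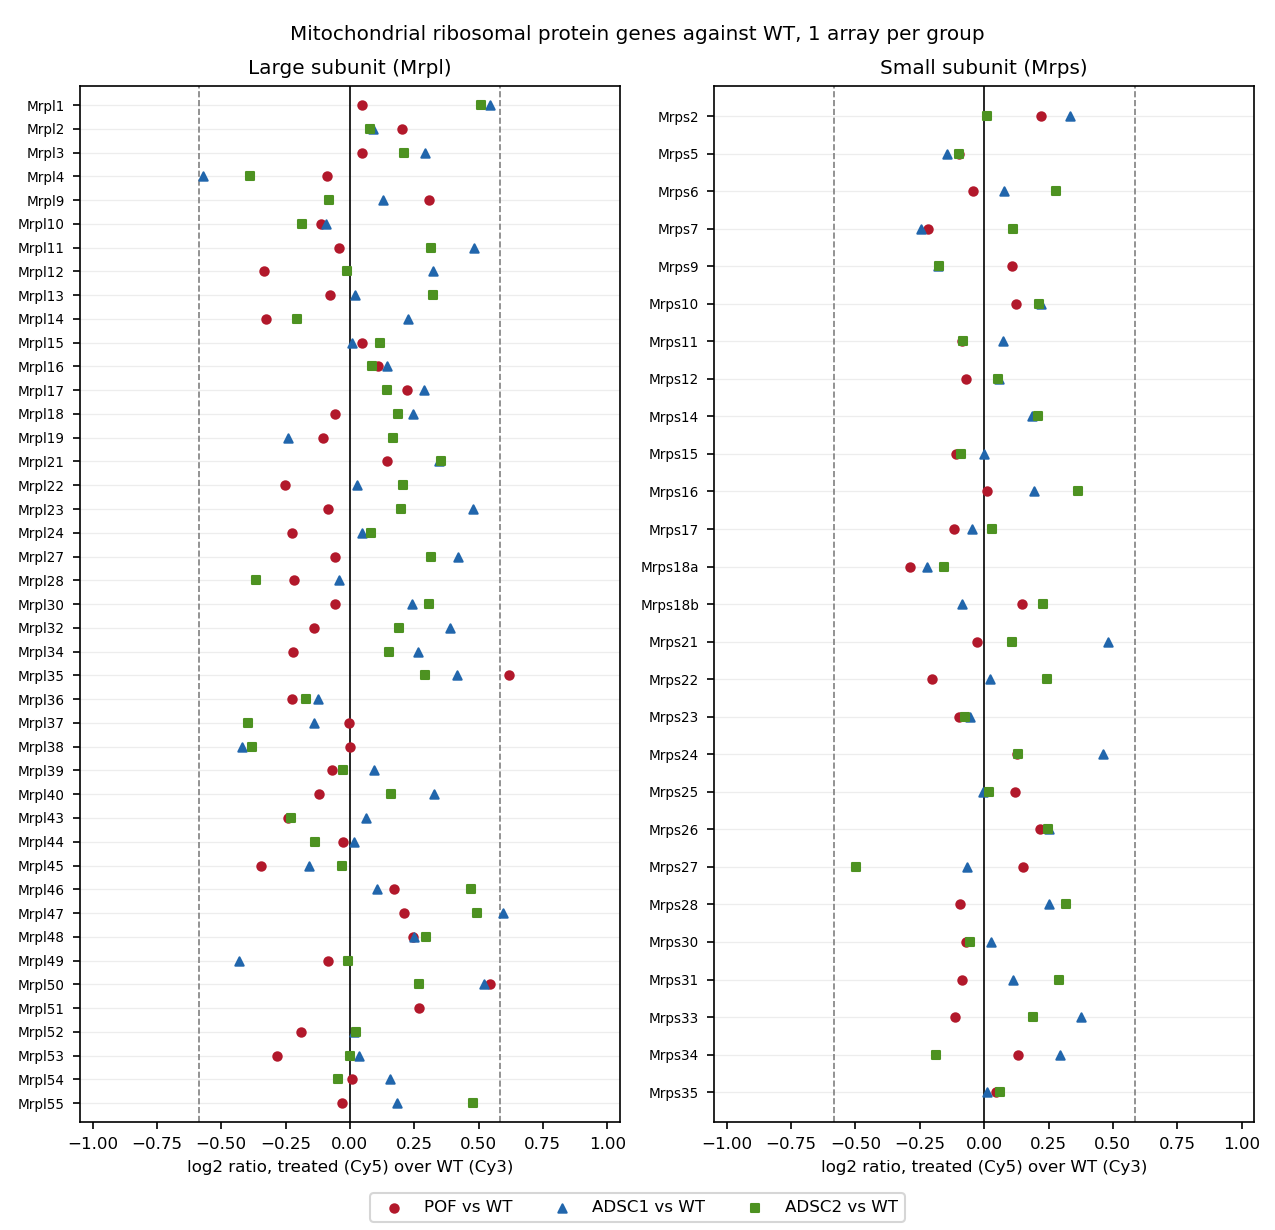
Log2 ratio of the treated group (Cy5) over WT (Cy3) for each measured member, with POF as circles, ADSC1 as triangles and ADSC2 as squares, 1 array each; dashed lines mark 1.5-fold. Only Mrpl35 in POF (0.62), with its WT signal not above background, and Mrpl47 in ADSC1 (0.59) pass a dashed line. With median centring 12 members in POF, 20 in ADSC1 and 23 in ADSC2 would, with the median of all genes at 0.36, 0.20 and 0.17. The share of all genes past the lines in that setting is not given, so these counts are not particular to the members.

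Against POF, both groups given cells had higher large-subunit medians, whose size depended on the scaling. In ADSC1 the median log2 difference from POF was 0.18 over 42 large-subunit genes and 0.11 over 26 small-subunit genes, against -0.004 over all 9158 genes. Of the large subunit 31 of 42 and of the small subunit 19 of 26 were above 0, against 49.4% of all genes. With median centring the large median was 0.035 and the small median -0.035, on the other side of 0, while all genes lay at -0.13, and with the Cy5 channel alone the large median was 0.062. At 1.5-fold or more 1 member was higher, Mrpl12, against 4.48% of all genes, and none (0) was lower, against 3.6%. No member reached 2-fold, against 0.939% of all genes.

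Mrpl12 had a log2 difference of 0.66 between ADSC1 and POF. Its Cy5 signal was 13.24 in ADSC1 against 12.93 in POF, a difference of 0.31, and its WT signal was 12.92 on the ADSC1 array against 13.26 on the POF array, a difference of -0.34. About as much of the value thus lay in the WT channel as in the treated one. Of the other stalk genes, Mrpl11 had a difference of 0.53 and Mrpl10, which holds the stalk to the ribosome, one of 0.02.

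Mrpl23 and Mrpl14 differed mainly in the treated channel. Mrpl23, at the tunnel exit, had a Cy5 signal of 12.43 in ADSC1 against 11.93 in POF and WT signals of 11.95 and 12.02 on the same arrays, for a difference of 0.56. Mrpl14 had 13.40 in ADSC1 against 12.88 in POF, with WT at 13.17 and 13.20, for a difference of 0.55. Mrpl4 (-0.48), Mrpl38 (-0.42) and Mrpl49 (-0.35) were lowest.

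By place in the ribosome, all 7 genes at or near the tunnel exit lay above 0 in ADSC1 against POF, with a median of 0.27 from 0.04 to 0.56, beside 31 of 42 in the large subunit and 49.4% of all genes. Against WT the medians of these 7 genes were -0.08 in POF, 0.05 in ADSC1 and 0.08 in ADSC2. Mrpl4, which lines the tunnel, was not in this list and lay at -0.48 in ADSC1 against POF. The central protuberance had 4 of 6 above 0, with Mrpl40 at 0.45, Mrpl18 at 0.30 and Mrpl38 at -0.42. Large-subunit proteins with a bacterial counterpart had a median of 0.23 over 28 genes and those specific to mitochondria 0.09 over 14. In the small subunit these medians were 0.12 over 14 and 0.05 over 12.

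Among small-subunit genes Mrps21 had the largest difference between ADSC1 and POF. Its Cy5 signal was 10.62 in ADSC1 against 10.21 in POF, with WT at 10.14 and 10.24, for a difference of 0.51. Mrps33 (0.49) and Mrps28 (0.34) followed, and Mrps9 (-0.29), Mrps18b (-0.23) and Mrps27 (-0.22) were lowest.

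In ADSC2 the median difference from POF was 0.19 over 42 large-subunit genes and 0.06 over 26 small-subunit genes, against 0.002 over all 9060 genes. Of the large subunit 29 of 42 and of the small subunit 21 of 26 lay above 0, against 50.2% of all genes. With median centring the large median was 0.064 and the small median -0.068, on the other side of 0, while all genes lay at -0.16, and with the Cy5 channel alone the large median was 0.10. No member (0) was 1.5-fold higher, against 4.29% of all genes, and 1 was 1.5-fold lower, Mrps27, against 3.21%. No member reached 2-fold, against 0.916% of all genes.

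Mrps27 was the member farthest from 0 in this comparison. Its Cy5 signal was 9.82 in ADSC2 against 10.95 in POF, a difference of -1.13, while the WT signal was 10.31 on the ADSC2 array against 10.80 on the POF array (-0.48). The ratio therefore differed by -0.65. Both channels were lower on the ADSC2 array, and the treated channel more so.

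The high end in ADSC2 against POF was held by Mrpl55 (0.51), Mrpl1 (0.46) and Mrpl22 (0.46). Mrpl22, whose loop lines the tunnel, had a Cy5 signal of 13.30 in ADSC2 against 12.65 in POF, with WT at 13.10 and 12.91. Mrpl37 (-0.39), Mrpl9 (-0.39) and Mrpl38 (-0.38) were lowest. Of the 7 genes at or near the tunnel exit 6 lay above 0, with a median of 0.28, beside 29 of 42 in the large subunit and 50.2% of all genes. Mrpl4, outside that list, lay at -0.30.

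In the small subunit the highest value between ADSC2 and POF was that of Mrps22, variants of which have been described in women with ovarian insufficiency. Its Cy5 signal was 11.75 in ADSC2, 11.46 in ADSC1 and 11.10 in POF. The WT signal was 11.50, 11.44 and 11.30 on those arrays, so that the ratio differed by 0.45 between ADSC2 and POF and by 0.22 between ADSC1 and POF. Mrps28 (0.41) and Mrps31 (0.38) came next, and Mrps34 (-0.32) and Mrps9 (-0.29) stood above Mrps27 at the low end.

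Mrps7, which contacts messenger and transfer RNA and has been linked in people to primary hypogonadism, had Cy5 signals of 12.43 in ADSC2, 12.08 in ADSC1 and 11.92 in POF. Its WT signals were 12.32, 12.32 and 12.13 on those arrays. The ratio differed by 0.33 between ADSC2 and POF, by -0.03 between ADSC1 and POF and by 0.36 between ADSC2 and ADSC1. Beyond these 2 genes, the other listed genes of mitochondrial translation and maintenance known from human ovarian insufficiency held Lars2, a leucyl-tRNA synthetase, as the lowest in POF against WT (-0.80). Of all genes 4.68% were 1.5-fold or more lower there. Lars2 also lay below WT in ADSC1 (-0.40) and ADSC2 (-0.51). Of the full list of 10 genes 3 lay above 0 in POF against WT, against 51.8% of all genes.

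Part of the difference from POF lay in the WT channel. For ADSC1 against POF, the median difference of the treated channel was 0.06 in the large and 0.08 in the small subunit, against -0.02 over all genes. The WT channel of the same arrays differed by -0.04, -0.06 and -0.02. For ADSC2 against POF, the treated channel differed by 0.10 and 0.07, against -0.03 over all genes, and the WT channel by -0.11, -0.06 and -0.04. The treated medians of both subunits thus lay above that of all genes. They were smaller than the medians of the ratios, except for the small subunit in ADSC2 against POF (0.07 in the treated channel, 0.06 as a ratio). In that channel 3 members differed by 1.5-fold or more between ADSC1 and POF and 7 between ADSC2 and POF, or 4.41% and 10.3% of members, against 11.3% and 14.7% of all genes.

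**Figure D3:**
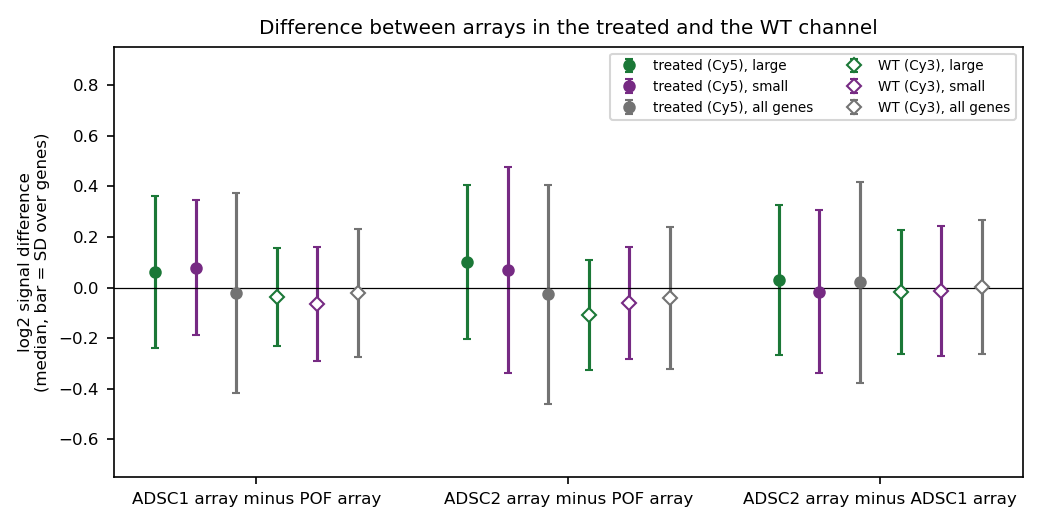
Median difference in log2 signal between arrays (bars, SD over genes) for large-subunit, small-subunit and all measured genes, with the treated Cy5 channel as filled circles and the WT Cy3 channel as open diamonds. Against POF the large subunit lay at 0.06 (ADSC1) and 0.10 (ADSC2) in the treated channel and at -0.04 and -0.11 in the WT channel.

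Between the routes of transplantation the small-subunit median lay near that of all genes, and the large-subunit median a little below it. The median log2 difference of ADSC2 from ADSC1 was -0.07 over 42 large-subunit genes, which turned to 0.03 when the Cy5 channel was used alone, and 0.002 over 27 small-subunit genes, against 0.004 over all 9440 genes. Of the large subunit 15 of 42 and of the small subunit 14 of 27 were above 0, against 50.5% of all genes. No member (0) was 1.5-fold higher, against 3.4% of all genes, or lower, against 3.09%, and none reached 2-fold, against 1.03%.

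Mrpl14 was the lowest large-subunit gene in ADSC2 against ADSC1, with a Cy5 signal of 12.82 in ADSC2 against 13.40 in ADSC1 and WT at 13.03 and 13.17, for a difference of -0.43. Mrpl12 (-0.33) and Mrpl28 (-0.32) followed, but the Cy5 signal of Mrpl12 was higher in ADSC2 by 0.13. Mrpl49 (0.42), Mrpl19 (0.41) and Mrpl46 (0.36) were highest. In the small subunit Mrps34, at -0.48, Mrps27, at -0.43, and Mrps21, at -0.37, were lowest, and Mrps7 (0.36), Mrps18b (0.31) and Mrps22 (0.22) were highest.

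**Figure D4:**
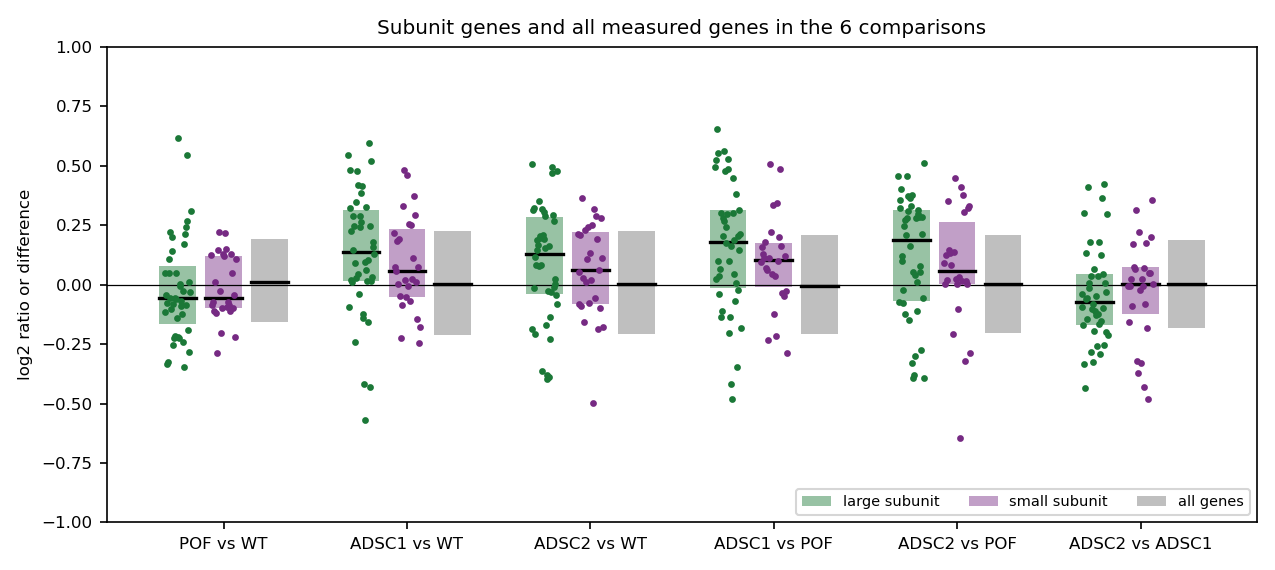
Log2 ratio (first 3 comparisons) or difference of log2 ratios (last 3) for large-subunit genes, small-subunit genes and all measured genes; shaded bars span the quartiles, black lines are medians and points are single members. The large-subunit median lay at -0.06 in POF vs WT and at 0.14 and 0.13 in ADSC1 and ADSC2 vs WT. The POF median was 0.02 with the authors' own values and 0.42 with median centring, where all genes lay at 0.36.

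Members with several probes showed how far 1 probe can be trusted. Of 11 such genes, 8 had 2 probes measured on every array. Mrpl1, Mrpl48 and Mrpl15 had probes within 0.23 of each other on each array. Mrps10 had a gap of 0.57 on the POF array, with 1 probe at 0.41 and the other at -0.16. Mrps2 and Mrps25 had gaps of 0.46 and 0.41 there, and their probes gave differences between ADSC2 and POF that lay 0.67 and 0.64 apart. Mrpl21, Mrpl53, Mrps30 and Mrpl35 each had a further probe that was dim on every array.

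**Figure D5:**
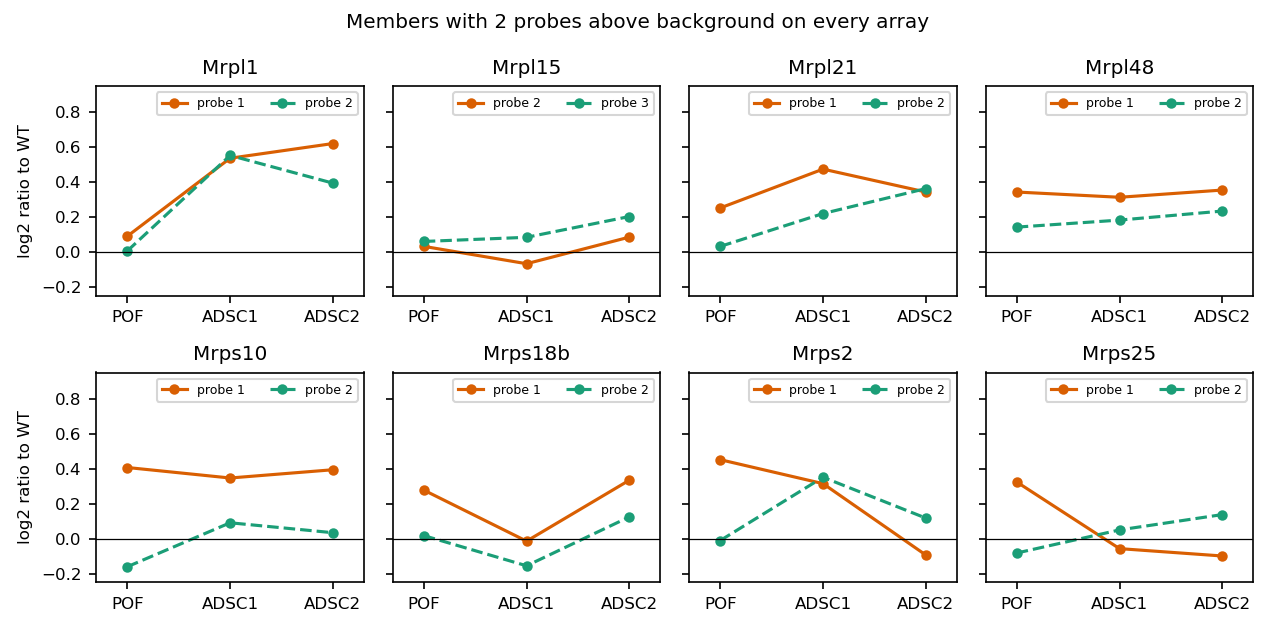
Log2 ratio to WT of each probe on the POF, ADSC1 and ADSC2 arrays for the 8 members with 2 probes measured on all arrays; each line is 1 probe. The lines of Mrpl1 run close together, whereas those of Mrps10 lie 0.57 apart on the POF array.

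Mrps30 and Mrps18a carry small-subunit names although structures place them in the large subunit. Mrps30 lay at -0.07 in POF, 0.03 in ADSC1 and -0.06 in ADSC2 against WT. Mrps18a lay below 0 on all 3 arrays, at -0.29, -0.22 and -0.15. Moving both to the large subunit shifted its medians by less than the SD of 0.04 of the large-subunit WT medians in all 6 comparisons, and the small-subunit median of ADSC2 against WT became 0.11.

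Mitochondrial ribosomal proteins known by other names were mostly higher in the groups given cells. Of 8 genes on the array 7 were measured, and 6 of the 7 lay above 0 in ADSC1 against POF (median 0.33) and in ADSC2 against POF (median 0.34), whereas 2 of 7 did in POF against WT (median -0.02). Over all genes the shares above 0 in these comparisons were 49.4%, 50.2% and 51.8%. Chchd1, a small-subunit protein, was 1.5-fold or more higher, at 0.74 in ADSC1 and 0.62 in ADSC2 against POF, where 4.48% and 4.29% of all genes were. Dap3, a GTP-binding small-subunit protein, lay at -0.35 and -0.10 in the same comparisons. Mrpl42, found on the array under an older name and chosen after its value was seen, lay at 0.38 and 0.69.

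The factors that work with the ribosome did not share these medians. Translation factors had medians of -0.05 over 13 genes in ADSC1 against POF and -0.04 over 13 in ADSC2 against POF, with 5 of 13 above 0 in each. Ribosome assembly factors had -0.08 and -0.12 over 19 genes, with 4 and 8 above 0. Over all genes, 49.4% and 50.2% lay above 0 in these comparisons. Nsun4, a methyltransferase of the small-subunit RNA that also guides large-subunit assembly, was 1.5-fold or more lower in both, at -0.64 and -0.67. Of all genes 3.6% and 3.21% were that much lower. Mettl17, also an assembly factor, lay at -0.70 in ADSC1 against POF, and the helicase Ddx28 at -0.66 in ADSC2 against POF. On the higher side, the translation factor Mtrf1 lay at 0.65 in ADSC1 against POF, where 4.48% of all genes were 1.5-fold or more higher. It lay at 0.33 in ADSC2 against POF. The assembly factor Malsu1 lay at 0.44 and 0.36 in the same comparisons.

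Mitochondrial aminoacyl-tRNA synthetases, which charge tRNAs, had medians of 0.09 over 13 genes and 0.03 over 12 against POF in ADSC1 and ADSC2. Genes of mitochondrial transcription and its regulators had -0.04 and 0.06 over 12 genes. Nrf1 and Yy1, whose motifs stand in member promoters, had log2 ratios to WT of -0.15 and -0.32 in POF, 0.17 and -0.24 in ADSC1, and -0.01 and -0.41 in ADSC2. Of the genes for GABP, an ETS-family factor, Gabpb1 lay at -0.08, 0.07 and 0.20 on the same arrays, and Gabpa was not above background.

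Cytosolic ribosomal protein genes had larger medians than the members in ADSC1. Against POF their median was 0.53 over 57 genes, all 57 above 0 and 20 at 1.5-fold or more, beside 0.12 over all 68 members. Of all genes 49.4% lay above 0 there and 4.48% were 1.5-fold or more higher. In ADSC2 against POF the cytosolic median was 0.18 over 57 genes, beside 0.11 over 68 members. In ADSC2 against ADSC1 it was -0.34 over 58 genes, beside -0.03 over 69 members. Respiratory chain and ATP synthase genes, part of whose complexes the mitochondrial ribosome makes, had 0.23 and 0.17 over 73 genes in ADSC1 and ADSC2 against POF. Of these genes 54 and 59 lay above 0, against 49.4% and 50.2% of all genes.

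Markers of ovarian and other cells moved on the same arrays, and their part in the members' values was not tested. Of 10 oocyte markers 8 were measured against POF, with a median of 0.71 in ADSC1 (from 0.51 to 1.32, 8 of 8 above 0) and 0.15 in ADSC2 (5 of 8 above 0), and the median of ADSC2 against ADSC1 was -0.70. Granulosa markers had medians of -0.68 over 8 genes in POF, -0.72 over 9 in ADSC1 and -0.74 over 9 in ADSC2 against WT. Amh was not above background, and Foxl2 was not measured in POF. Macrophage markers had 0.78 over 9 genes, 1.42 over 9 and 1.57 over 8 against WT, all above 0, with Itgam not above background. Oviduct and cilia markers had 0.81 over 5 genes in POF against WT, led by Ovgp1 at 4.02, 0.27 over 5 in ADSC1 and 0.20 over 4 in ADSC2. Foxj1 was not above background, and Dynlrb2 was not measured in ADSC2. Of 6 erythroid markers on the array 3 were measured, with medians of 1.80 in POF, 0.64 in ADSC1 and 1.79 in ADSC2 against WT. Adipocyte markers had -0.24 over 5 genes, 0.20 over 5 and 1.39 over 6, with Adipoq not above background. In ADSC2 the adipocyte markers Cfd (2.47), Fabp4 (1.49), Car3 (1.48) and Cd36 (1.29) were higher than WT, but Lpl (-0.64) and Plin1 (-0.32) lower. Cfd was measured only on the ADSC2 array. Theca and luteal markers had 0.18, -0.31 and 0.10 over 8 genes.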

How the data were processed

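RNA of POF, ADSC1 and ADSC2 ovaries (Cy5) was measured against WT ovaries (Cy3) on 3 spotted arrays, 1 per group. Per the file headers, the scanner files deposited by the authors give each spot's median intensity, with the median and SD of the background around it, in both channels. LuxScan 3.0 made them, per the series' design text. The deposited flag is a score of 100 or -100 without a stated meaning. The authors' processed values are log2 ratios, and how they were normalized is not given in the sources used here. They followed the Cy5 over Cy3 direction of the scanner values (r of 0.966, 0.955 and 0.943 over spots above 500 intensity units), with medians of 0.04, 0.0082 and 0.02.

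Intensities were corrected with normexp (offset 50) and log2 ratios normalized by loess within each array, with a weight of 0 for control spots (R 4.3.3, limma 3.58.1). Signals of single channels were scaled across arrays with limma's Aquantile. Above background means that a spot's median lay over 2 background SDs higher than the background median beside it. A probe was measured if 1 channel or both passed this on each array of the comparison, and measured probes of a gene were averaged. This favours ratios above 0 for genes dim in WT. Array names were updated through RefSeq (GRCm38.p6). Summaries used pandas 2.3.3 and numpy 2.4.6 in Python 3.11.15. Only the loess ratios were tested on simulated arrays, not the background filter, the averaging of probes or the scaling of single channels.

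Named members are, per comparison, the 3 highest and 3 lowest of each subunit above background in both channels, those with several probes, and Mrps22, Mrps7, Mrps30 and Mrps18a; of other lists, up to 3 genes farthest from 0. The members, lists and rules were chosen with earlier results of these data known. No p-value was computed. Alternatives were median centring, the authors' values, no background subtraction, filters on dim probes and flags, the brightest probe, subunits by structure and the Cy5 channel alone.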

Additional observations from a re-analysis of the deposited data

How the results depend on the processing

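The medians kept their direction under most alternatives, but their size depended on the normalization. With median centring in place of loess, the all-gene medians lay at 0.36, 0.20 and 0.17 for POF, ADSC1 and ADSC2 against WT, at -0.13 and -0.16 for ADSC1 and ADSC2 against POF and at -0.03 for ADSC2 against ADSC1. The large and small medians were then 0.42 and 0.48 in POF against WT (both reversed), 0.52 and 0.41 in ADSC1 against WT, 0.46 and 0.45 in ADSC2 against WT, 0.035 and -0.035 in ADSC1 against POF and 0.064 and -0.068 in ADSC2 against POF (both small medians reversed). With the authors' values they were 0.021 and 0.033 in POF against WT (both reversed), 0.10 for the small subunit in ADSC2 against WT, 0.10 and 0.0148 in ADSC1 against POF, and -0.0188 for the large subunit in ADSC2 against ADSC1. With the Cy5 channel alone they were 0.062 and 0.078 in ADSC1 against POF, 0.10 for the large subunit in ADSC2 against POF and 0.030 for it in ADSC2 against ADSC1 (reversed). Without a filter on dim probes, the small median was -0.027 in POF against WT and 0.10 in ADSC2 against WT, and the large median 0.084 in ADSC2 against WT and 0.10 in ADSC2 against POF. With spots of positive flag, the small median was 0.11 in both ADSC2 comparisons, with the brightest probe 0.11 against WT and 0.13 against POF, and by structure 0.11 against WT. The cause was not tested. Relative to all genes, the large median stayed 0.08 to 0.20 higher in ADSC1 against POF and 0.10 to 0.22 higher in ADSC2 against POF under every alternative, and the small median 0.06 to 0.13 and 0.03 to 0.12 higher. Counts of members at 1.5-fold or more ranged over 0 to 12, 1 to 20 and 0 to 23 against WT, beside 1, 1 and 0, and over 1 to 3, 1 to 7 and 0 to 2 between treated groups, beside 1, 1 and 0. For most of these settings the share of all genes is not given, so the ranges show only how the counts depend on the setting. No paired analysis was possible because each treated group has 1 array, WT is the other channel of all 3, and the labels give no replicate numbers. One array per group and dim WT signals of Mrpl35, Mrpl51 and Mrps14 limit the values.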
